A study of Mus musculus with 20 samples.

Results

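Il7r, Lef1, Tcf7, Ccr7, S1pr1, Bcl11b, Satb1, Foxp1 and Cd27 are 9 genes that resting T cells express and that direct their survival, identity and travel through lymphoid tissue. They were taken as a named group by gene symbol, with every probe that carries the symbol or an older name of it (S1pr1 as Edg1, 1 Bcl11b probe as 9130430L19Rik), which gave 18 probes of the 41174 probes that are not controls, and 9 of 27573 gene names. Of these 18 probes 16 passed the filter on dim signal, at least 1 for each gene. The other two, Il7r probe 3 and Lef1 probe 3, were well above background on 0 of 20 arrays and have no usable level in this blood.

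Naive T cells circulate between blood and lymph nodes. Interleukin-7, read through Il7r, keeps them alive. The transcription factors Tcf7, Lef1, Bcl11b, Satb1 and Foxp1 hold their identity and their resting state, Ccr7 brings them into lymph nodes, S1pr1 lets them out again, and Cd27 is a costimulatory receptor of the tumour necrosis factor receptor family. Activation of a T cell is known to lower several of these transcripts, so that they are widely used as markers of the naive state.

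The series followed 4 female C57Bl/6 mice, numbered 305, 310, 315 and 320, that received Hepa1-6 cells, a mouse hepatoma line, under the skin. Blood of each mouse was taken before inoculation (day 0) and on days 10, 15, 20 and 25 after it, which gave 5 groups of 4 whole blood samples. Each sample was labelled with Cy5 and hybridised on 1 Agilent array beside a common reference, RNA from the blood of untreated female C57Bl/6 mice labelled with Cy3. A level below is the log2 ratio of sample over reference, a difference is between 2 day means on that scale, and "past the threshold" means an adjusted p under 0.05 in a limma fit over 20940 probes.

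No blood of mice without tumour cells at the later days was analysed here, and the 4 arrays of each day lay on 1 slide, so day after inoculation and slide cannot be told apart. The Cy5 signal was well above background for 37.7% to 51.2% of spots, and precision is limited by having 4 arrays a day. The median net Cy5 intensity was 48.9 to 67.6 on day 0, 16.4 to 20.3 on day 10, 12.6 to 15.9 on day 15, 12.9 to 16.2 on day 20 and 21.1 to 28.4 on day 25. The mean log2 ratio of synthetic spike-in probes (E1A transcripts added to the RNA) stood 0.554, 0.333 and 0.152 above day 0 on days 10, 15 and 20 and at -0.516 against day 0 on day 25. The day 0 array of mouse 320 stood apart, with a mean correlation across probes of 0.39 with the other day 0 arrays and 0.61 with those of day 10. The day 20 array of mouse 305 likewise had a mean correlation of 0.377 with its own day. The part of signal, spike-ins and these arrays in the results was not tested beyond the values given without them.

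Of the 9 genes 4 fell on day 10 and 4 on day 15 after inoculation, against day 0, with 31.2% and 25% of their 16 probes called, against 11.2% and 5.85% of all probes. None differed from day 0 past the threshold on days 20 or 25. On day 10, 1 probe each of Lef1, Tcf7 and Foxp1 and both probes of Satb1 fell, between 1.29-fold and 1.5-fold. On day 15, 1 probe each of Il7r, Lef1, Tcf7 and Satb1 fell, between 1.22-fold and 1.48-fold. On day 25 against day 10, Il7r, Tcf7, S1pr1, Satb1 and Foxp1 rose, up to 1.82-fold, in a comparison that called 31.4% of all probes and 43.8% of the 16. The calls depended on how the arrays were scaled, and with scaling between arrays none of the 16 probes passed on day 10. The day 10 share was also not above that of all probes with Cy5 alone (12.5% against 25.1%). The same held with the scanner software's ratio (25% against 30.4%) and with no background correction (37.5% against 39.4%). Bcl11b did not pass the threshold in any comparison, Ccr7 did not either, and Cd27 alone fell between days 10 and 25, a call that several settings ended. In whole blood, fewer cells of a type and less RNA per cell cannot be told apart.

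**Figure D1:**
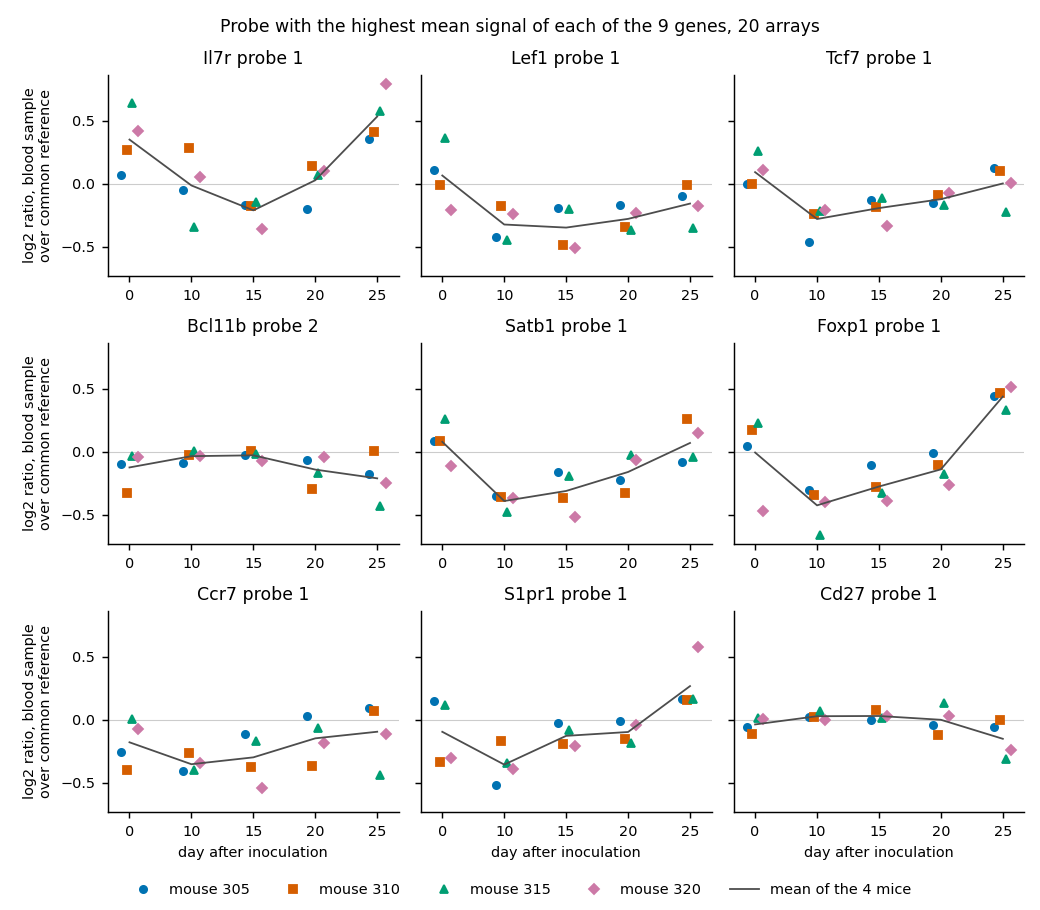
Log2 ratio of blood sample over common reference (y axis) by day after inoculation (x axis) for the probe with the highest mean signal of each gene; each point is 1 array, marked by mouse, and the line joins the means of the 4 mice. Satb1 and Tcf7 lie below every day 0 value on all 4 arrays of day 10, and Foxp1 and S1pr1 lie above every day 0 value on all 4 arrays of day 25, while the Bcl11b groups overlap in every comparison.

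Il7r encodes the alpha chain of the interleukin-7 receptor, which naive T cells need to survive. Its probe 1 gave, for mice 305, 310, 315 and 320 in that order (kept for every gene below), log2 ratios of 0.072, 0.27, 0.64 and 0.42 on day 0 and -0.051, 0.29, -0.34 and 0.056 on day 10. The later values were -0.17, -0.17, -0.14 and -0.36 on day 15, -0.20, 0.14, 0.07 and 0.10 on day 20 and 0.36, 0.41, 0.57 and 0.79 on day 25. All 4 mice were below 0 on day 15, and no day 15 value reached the lowest day 0 value. The day 15 mean was -0.21 ± 0.098 against 0.35 ± 0.24 on day 0 (SD, n = 4 each), a 1.48-fold lower level with a log2 difference of -0.56 (SE 0.13, adjusted p = 0.0142). That call was lost when the day 0 array of mouse 315 (adjusted p = 0.0588) or the day 15 array of mouse 320 (adjusted p = 0.0531) was left out. On day 10 the mean was -0.013 ± 0.26 and the difference of -0.36 (SE 0.13, adjusted p = 0.0794) missed the threshold, with 3 of 4 mice lower and overlapping groups. It passed without the day 10 array of mouse 310 (adjusted p = 0.0246), the one mouse whose day 10 value was not below its day 0 value.

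Later Il7r was no longer below day 0 past the threshold. The day 20 difference from day 0 was -0.32 (SE 0.13, adjusted p = 0.151). On day 25 the mean was 0.53 ± 0.20, and every mouse stood above every day 10 value; the difference from day 10 was 0.55 (SE 0.13, adjusted p = 0.00457), a 1.46-fold rise, with 4 of 4 mice higher. With scaling between arrays it did not pass (0.62, adjusted p = 0.274). Against day 0 the day 25 level was not past the threshold, at 0.18 (SE 0.13, adjusted p = 0.471), with a 95% interval -0.091 to 0.46. Probe 2 of Il7r was well above background on 4, 1, 0, 0 and 4 arrays of days 0, 10, 15, 20 and 25. On days 15 and 20 it therefore has only a bound in the Cy5 channel, a level at least 1.06-fold (day 15) and at least 1.09-fold (day 20) lower than on day 0, while its fitted log2 ratio difference was 0.034 on day 15 (adjusted p = 0.967).

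Other genes of interleukin-7 signalling fell in part. Of 12 genes kept out of 14 listed, 0 were higher and 4 lower on day 10, 0 and 3 on day 15, 0 and 2 on day 20, and 0 and 0 on day 25, all against day 0, and 4 were higher and 0 lower on day 25 against day 10. The median difference on day 15 was -0.186, against -0.0146 over all probes. Bcl2, an inhibitor of cell death that interleukin-7 maintains, differed by -0.66 on day 15 (adjusted p = 0.000384) and by -0.41 on day 10 (adjusted p = 0.0061). Mcl1, a second survival factor, differed by -0.54 on day 15 (adjusted p = 0.00324), and Stat5b, which carries the receptor's signal to the nucleus, by -0.55 (adjusted p = 0.000655). On day 25 each of these 3 genes differed from day 0 by between -0.10 and -0.038 and none passed the threshold. The common gamma chain Il2rg (0.028 on day 15, adjusted p = 0.99) and the kinase Jak3 (-0.16, adjusted p = 0.0865) did not pass. Foxo1, a factor that drives Il7r transcription in resting T cells, differed from day 0 by -0.13 on day 15 (adjusted p = 0.729) and rose on day 25 against day 10, by 0.39 (adjusted p = 0.00747). Most of these genes are expressed well beyond T cells.

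Tcf7 and Lef1 are related factors that bind the same DNA letters and act together in T cell identity. Tcf7 probe 1 gave 0.0013, -0.003, 0.26 and 0.11 on day 0, -0.46, -0.24, -0.22 and -0.20 on day 10 and -0.13, -0.19, -0.11 and -0.34 on day 15. It then gave -0.16, -0.088, -0.17 and -0.071 on day 20 and 0.13, 0.10, -0.23 and 0.011 on day 25. No value of days 10, 15 or 20 reached the lowest day 0 value. The day 10 mean was -0.28 ± 0.12 against 0.093 ± 0.12 on day 0 (SD, n = 4 each), a difference of -0.37 (SE 0.08, adjusted p = 0.0076) or 1.29-fold, and this call held without any single array. It did not pass with scaling between arrays (-0.45, adjusted p = 0.0983) or with Cy5 alone (-0.18, adjusted p = 0.104). The day 15 difference was -0.28 (SE 0.08, adjusted p = 0.0416). It did not pass with the mouse as a replicate block (adjusted p = 0.0612) and 13 of the 20 arrays could each end it when left out (highest adjusted p 0.176). On day 25 the mean was 0.0033 ± 0.16, higher than on day 10 by 0.28 (SE 0.08, adjusted p = 0.0131) with 3 of 4 mice higher, a call that ended without the day 10 array of mouse 305 (adjusted p = 0.0507) and with scaling between arrays (0.40, adjusted p = 0.11).

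Lef1 probe 1 gave 0.11, -0.0074, 0.37 and -0.21 on day 0, -0.42, -0.18, -0.45 and -0.24 on day 10 and -0.19, -0.49, -0.20 and -0.51 on day 15. Its values were -0.17, -0.34, -0.36 and -0.23 on day 20 and -0.093, -0.011, -0.35 and -0.17 on day 25. Each mouse was below its own day 0 value on days 10, 15 and 20, although the day 0 array of mouse 320 reached into the range of the later days. The day 10 mean was -0.32 ± 0.13 against 0.066 ± 0.24 on day 0 (SD, n = 4 each), a difference of -0.39 (SE 0.11, adjusted p = 0.0285). The day 15 difference was -0.41 (SE 0.11, adjusted p = 0.0292) and the day 20 difference -0.34 (SE 0.11, adjusted p = 0.0828). Of all the genes that had fallen, Lef1 was the one with no rise past the threshold on day 25 against day 10, at 0.17 (SE 0.11, adjusted p = 0.256) (95% interval -0.063 to 0.39), with 4 of 4 mice higher. That difference passed with median centring, with the Cy5 channel alone and with no background correction (adjusted p between 0.00319 and 0.0434). The day 10 difference was -0.45 with scaling between arrays (adjusted p = 0.117). The day 10 and day 15 calls were each lost when 1 of 4 arrays was left out, among them the day 0 arrays of mice 305 and 315 (highest adjusted p 0.0971 for day 10 and 0.117 for day 15). Without the day 0 array of mouse 320 or the day 20 array of mouse 305, the day 20 difference passed (adjusted p between 0.0276 and 0.0381).

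Satb1, a chromatin organiser of T cells, was lower on day 10 with both of its probes. Its probe 1 gave 0.089, 0.083, 0.26 and -0.11 on day 0, -0.35, -0.36, -0.48 and -0.37 on day 10 and -0.16, -0.37, -0.19 and -0.52 on day 15, then -0.22, -0.33, -0.026 and -0.064 on day 20 and -0.084, 0.26, -0.044 and 0.15 on day 25. The day 10 mean was -0.39 ± 0.06 against 0.08 ± 0.15 on day 0 (SD, n = 4 each), a difference of -0.47 (SE 0.095, adjusted p = 0.00555) with no overlap and 4 of 4 mice lower. Day 15 differed from day 0 by -0.39 (SE 0.095, adjusted p = 0.0188), day 20 by -0.24 (SE 0.095, adjusted p = 0.145) and day 25 by -0.0091 (SE 0.095, adjusted p = 0.973). From day 10, day 25 was higher by 0.46 (SE 0.095, adjusted p = 0.00175). The day 15 call was lost when 1 of 4 arrays was left out (highest adjusted p 0.0856), and leaving out any single array ended neither the day 10 nor the day 25 call. With scaling between arrays the day 10 difference was -0.53 (adjusted p = 0.226) and day 25 against day 10 was 0.72 (adjusted p = 0.078), and with Cy5 alone they were -0.22 (adjusted p = 0.0586) and 0.15 (adjusted p = 0.206).

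Satb1 probe 2, which the day 15 files place 67327 bases upstream of probe 1 along the gene's strand (genome build not named there), was not lower past the threshold on day 15. It gave 0.032, -0.062, -0.36 and -0.48 on day 0, -0.76, -0.54, -1.05 and -0.85 on day 10 and -0.099, -0.40, -0.17 and -0.43 on day 15. It gave -0.48, -0.64, -0.73 and -0.57 on day 20 and 0.028, 0.06, 0.076 and -0.055 on day 25. The 4 day 10 values were below all day 0 values, the day 15 values lay within the day 0 range, and the day 20 values were again below all of day 0. The difference from day 0 was -0.58 (SE 0.11, adjusted p = 0.00427) on day 10, -0.059 (SE 0.11, adjusted p = 0.979) on day 15 and -0.39 (SE 0.11, adjusted p = 0.0649) on day 20. The day 10 call ended with scaling between arrays (-0.34, adjusted p = 0.387) and with Cy5 alone (-0.22, adjusted p = 0.161). With the mouse as a replicate block the day 20 difference passed (adjusted p = 0.0286). On day 25 this probe stood 0.83 (SE 0.11, adjusted p = 0.000105) above day 10, a 1.77-fold rise. Whether the 2 probes differ on day 15 was not tested.

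Foxp1, a forkhead factor that holds naive T cells in quiescence, fell early and rose late. Probe 1 gave 0.044, 0.18, 0.23 and -0.47 on day 0, -0.30, -0.34, -0.66 and -0.39 on day 10 and -0.10, -0.28, -0.33 and -0.39 on day 15, then -0.006, -0.11, -0.18 and -0.26 on day 20 and 0.44, 0.47, 0.33 and 0.52 on day 25. The day 0 array of mouse 320 was far below the other 3 mice, inside the day 10 range, and 3 of 4 mice were lower on day 10 than on day 0. The day 10 difference of -0.42 (SE 0.12, adjusted p = 0.0298) was lost when 1 of 5 arrays was left out (highest adjusted p 0.109). It was also lost with Cy5 alone, no filter, the scanner software's ratio and scaling between arrays (adjusted p between 0.0503 and 0.502). All 4 mice were highest on day 25, with a mean of 0.44 ± 0.079 against -0.42 ± 0.16 on day 10 (SD, n = 4 each), a 1.82-fold rise of 0.86 (SE 0.12, adjusted p = 0.000116). With scaling between arrays it was 1.12 (adjusted p = 0.0695). Day 25 also lay above all day 0 values, but the difference of 0.44 (SE 0.12, adjusted p = 0.1) missed the threshold. It passed without the day 25 array of mouse 310 (adjusted p = 0.0435), with Cy5 alone (adjusted p = 0.0413) and with no background correction (adjusted p = 0.0184).

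Bcl11b, a factor that commits precursors to the T cell lineage, passed the threshold in none of the 5 comparisons with either probe. Probe 2, the brighter one, gave -0.094, -0.33, -0.032 and -0.042 on day 0, -0.086, -0.027, 0.0063 and -0.029 on day 10 and -0.023, 0.003, -0.018 and -0.071 on day 15. It gave -0.068, -0.29, -0.17 and -0.038 on day 20 and -0.18, 0.0086, -0.43 and -0.24 on day 25, and the groups overlapped in every comparison. Its difference from day 0 was 0.089 (SE 0.079, adjusted p = 0.5) on day 10 (95% interval -0.077 to 0.26) and -0.086 (SE 0.079, adjusted p = 0.587) on day 25 (95% interval -0.25 to 0.08). Probe 1 ranged between -0.31 and 0.050 over the 20 arrays, and its difference from day 0 furthest from 0 was -0.16 (SE 0.058, adjusted p = 0.118) on day 20. Without the day 20 array of mouse 305 that difference passed (adjusted p = 0.017). On day 15 probe 1 passed with Cy5 alone, no background correction, the scanner software's ratio and scaling between arrays, at -0.71 to -0.11 (adjusted p between 0.000758 and 0.033).

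Promoters of 7 of the 9 genes, with 17 start sites, were matched by symbol in RefSeq (GRCm38.p6), each as the 250 bases before the start. Each was searched on both strands, so that a match can appear as its reverse complement. The first motif was CTTTGA, letters within the site that Tcf7 and Lef1 bind, which 3 of 17 windows (17.6%) held, against 13.8% of 32851 promoters of all genes. CCACCC, a Klf-type box, was in 11 of 17 windows (64.7%) against 28.1% of all promoters. TGTGGT, a Runx-type motif, was in 0 of 17 against 14%, and GTAAACA, a forkhead motif, in 0 of 17 against 3.17%. Some windows of 1 gene overlap (Lef1 starts 1 and 2, Satb1 starts 4 and 5), while others lie far apart, as those of Foxp1 do. The 17 are therefore not independent, and a match is a description of letters only. The 3 windows with CTTTGA are shown because Tcf7 and Lef1 are themselves among the genes that fell, and that of Il7r, with 0 matches to the 4 motifs, is set beside them. Capitals mark matches to the 4 motifs. The windows are Lef1 start 4 at chr3:131156044-131156293 (plus strand), Foxp1 start 2 at chr6:99266516-99266765 (minus strand), Bcl11b start 1 at chr12:108003415-108003664 (minus strand) and Il7r at chr15:9529877-9530126 (minus strand).
Lef1 start 4: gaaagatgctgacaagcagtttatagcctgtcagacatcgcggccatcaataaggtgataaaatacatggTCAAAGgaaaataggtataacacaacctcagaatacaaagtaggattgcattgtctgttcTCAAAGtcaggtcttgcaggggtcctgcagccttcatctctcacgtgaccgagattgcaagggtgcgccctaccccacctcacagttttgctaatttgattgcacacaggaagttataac
Foxp1 start 2: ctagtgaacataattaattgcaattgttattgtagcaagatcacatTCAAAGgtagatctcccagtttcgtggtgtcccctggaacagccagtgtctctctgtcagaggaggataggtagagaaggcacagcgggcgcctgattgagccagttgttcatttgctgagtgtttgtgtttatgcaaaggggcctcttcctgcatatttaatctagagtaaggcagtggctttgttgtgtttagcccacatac
Bcl11b start 1: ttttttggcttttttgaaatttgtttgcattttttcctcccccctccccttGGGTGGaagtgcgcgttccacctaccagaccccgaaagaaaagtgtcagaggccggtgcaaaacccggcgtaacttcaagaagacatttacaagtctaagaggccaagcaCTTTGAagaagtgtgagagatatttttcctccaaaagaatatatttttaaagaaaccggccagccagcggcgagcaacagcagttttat
Il7r start 1: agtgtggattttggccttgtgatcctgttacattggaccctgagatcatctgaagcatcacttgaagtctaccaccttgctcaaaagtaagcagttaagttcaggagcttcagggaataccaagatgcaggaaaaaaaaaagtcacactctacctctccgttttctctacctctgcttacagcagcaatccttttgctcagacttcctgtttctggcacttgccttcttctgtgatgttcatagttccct
The Lef1 window held the CTTTGA letters 180 and 120 bases before the start, the Foxp1 window 204 bases and the Bcl11b window 89 bases before it. Lef1 and Foxp1 fell on day 10 and Bcl11b did not pass the threshold. The letters lay at start 4 of 4 for Lef1 and start 2 of 3 for Foxp1, and at no other start of these genes. Which start is used in this blood, and any link of the letters with the changes, was not tested. The Il7r window had a GC content of 44%, close to the 44.8% of the Lef1 and Bcl11b windows.

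Other factors of T cell development were mixed. Of the 17 listed, all kept, 2 were higher and 3 lower on day 10, 1 and 1 on day 15, and 0 and 0 on days 20 and 25, each against day 0. On day 25 against day 10, 8 were higher and 4 lower. Ets1, a factor for T cell homeostasis, differed by -0.67 on day 10 (adjusted p = 0.00285), by -0.41 on day 15 (adjusted p = 0.0494) and, on day 25 against day 10, by 0.81 (adjusted p = 0.000166). Its day 15 call was lost when any 1 of 14 arrays was left out (highest adjusted p 0.196). Among the Tcf7 and Lef1 partners (beta-catenin, Groucho-type corepressors and targets), 0 of 8 kept were higher and 2 lower on day 10, 0 and 0 on day 15, 0 and 2 on day 20, and 0 and 0 on day 25, against day 0, and 5 were higher and 2 lower on day 25 against day 10. Their median difference on day 20 was -0.212, against -0.0231 over all probes.

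Ccr7, the chemokine receptor that brings naive T cells into lymph nodes, had its lowest mean on day 10. Its values were -0.25, -0.39, 0.0094 and -0.075 on day 0, -0.41, -0.26, -0.39 and -0.34 on day 10 and -0.11, -0.38, -0.17 and -0.54 on day 15. They were 0.027, -0.37, -0.064 and -0.18 on day 20 and 0.097, 0.073, -0.43 and -0.11 on day 25. The groups overlapped in every comparison, and mouse 315 was the highest of the 4 on day 0 and the lowest on day 25. The difference from day 0 was -0.17 (SE 0.12, adjusted p = 0.374) on day 10 (95% interval -0.42 to 0.078) and -0.12 (SE 0.12, adjusted p = 0.862) on day 15. The day 15 difference was -0.58 with scaling between arrays and passed (adjusted p = 0.00936). On day 25 Ccr7 stood 0.26 (SE 0.12, adjusted p = 0.108) above day 10, which passed without the day 25 array of mouse 315 (adjusted p = 0.0249).

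S1pr1, the receptor for sphingosine 1-phosphate that lets lymphocytes leave lymph nodes, rose late. Its values were 0.15, -0.34, 0.11 and -0.30 on day 0, -0.52, -0.17, -0.34 and -0.39 on day 10 and -0.021, -0.19, -0.084 and -0.21 on day 15. They were -0.01, -0.15, -0.19 and -0.039 on day 20 and 0.16, 0.16, 0.17 and 0.58 on day 25. The day 25 values of all 4 mice were above every value of the other 4 days, and mouse 320 was the highest of them by far. Against day 10 the day 25 mean was 0.27 ± 0.21 against -0.35 ± 0.14 (SD, n = 4 each), a 1.54-fold rise of 0.62 (SE 0.11, adjusted p = 0.000747). Against day 0 the difference of 0.36 (SE 0.11, adjusted p = 0.132) missed the threshold, and it passed without the day 25 array of mouse 310 (adjusted p = 0.0477). It also passed with the scanner software's ratio, Cy5 alone and no background correction (adjusted p between 0.0101 and 0.022), and not with the other settings. The day 10 difference from day 0 was -0.26 (SE 0.11, adjusted p = 0.15), with 3 of 4 mice lower.

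Other genes of homing and egress did not move as one. Of 19 kept out of 21 listed, 1 was higher and 2 lower on day 10, 1 and 3 on day 15, 0 and 2 on day 20 and 0 and 0 on day 25, against day 0, with medians of -0.16, -0.111, -0.129 and -0.0333. On day 25 against day 10, 5 were higher and 3 lower. Klf2, a factor that drives S1pr1 in T cells, differed by 1.21 on day 10 (adjusted p = 0.00373), by 0.81 on day 15 (adjusted p = 0.0393) and by -1.92 on day 25 against day 10 (adjusted p = 4.9e-05). Its day 15 call was lost when any 1 of 9 arrays was left out (highest adjusted p 0.164). Klf2 is also a gene of red cell precursors. With median centring in place of loess the Klf2 sign turned on days 10 (-0.36) and 15 (-0.68). The integrin chain Itgal differed by -0.38 on day 15 (adjusted p = 0.01) and Sgpl1, the lyase that breaks down sphingosine 1-phosphate, by -0.35 on day 10 (adjusted p = 0.00281). Cd69, which holds S1pr1 inside the cell, did not pass in any comparison, for instance -0.27 on day 10 (adjusted p = 0.192).

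Cd27, which supports T cell survival after costimulation, ranged between -0.12 and 0.13 until day 20. Its values were -0.057, -0.12, 0.017 and 0.0095 on day 0, 0.025, 0.022, 0.068 and 2.0e-04 on day 10 and -0.0027, 0.08, 0.015 and 0.031 on day 15. They were -0.038, -0.12, 0.13 and 0.032 on day 20 and -0.055, -3.7e-04, -0.31 and -0.24 on day 25, when mice 315 and 320 were low. Day 25 averaged -0.15 ± 0.15 against 0.029 ± 0.029 on day 10 (SD, n = 4 each), with no overlap and a difference of -0.18 (SE 0.063, adjusted p = 0.0386). The call ended with the mouse as a replicate block (adjusted p = 0.0577) and when 1 of 6 arrays was left out (highest adjusted p 0.139), and with median centring the difference turned to 0.55. In the Cd27 pathway, 1 of 8 genes kept was higher and 2 lower on day 10, 1 and 1 on day 15, and 0 and 0 on days 20 and 25, against day 0, and 4 were higher and 1 lower on day 25 against day 10. Traf2, an adaptor of Cd27, differed by 0.94 on day 15 (adjusted p = 0.00736), and Birc3, a partner of Traf2, by -0.44 (adjusted p = 0.00385). Traf2 also turned its sign with median centring (-0.37 on day 15).

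Counted over probes, 0 were higher and 5 lower of 16 tested on day 10 against day 0, in 4 of 9 genes, where 11.2% of all 20940 probes were called. On day 15, 0 were higher and 4 lower, in 4 genes, where 5.85% of all probes were called. The median difference of the 16 probes was -0.147 on day 10 and -0.0518 on day 15, against -0.0225 and -0.0146 over all probes. On day 20 limma called 0 of 16 (2.87% of all probes) and on day 25 0 of 16 (0.148% of all probes), with 6 and 3 probes at an unadjusted p under 0.05. On day 25 against day 10, 6 probes of 5 genes were higher and 1 was lower, where 31.4% of all probes were called. In a test for any difference among the 5 days 7 of 16 probes passed, where 27% of all probes did. In the main fit the share of called probes was thus above the background on days 10 (31.2% of 16) and 15 (25%). The share was nearer to the background on day 25 against day 10 (43.8%). With no background correction, also by loess, the share was 37.5% on days 10 and 15, against 39.4% and 39.5% of all probes. The scanner software's ratio gave 25% and 37.5%, against 30.4% and 43.7%. Cy5 alone gave 12.5% and 50%, against 25.1% and 47%. With offset 10, other filters, 1 probe per gene or the mouse as a block the share exceeded the background on both days.

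These counts rest on few arrays. On day 10 the count was 3 without the day 0 array of mouse 305 or 315 or the day 10 array of mouse 315, and on day 15 it was 0 without the day 0 array of mouse 315 or the day 15 array of mouse 320 and 1 without the day 0 array of mouse 305 or the day 15 array of mouse 310. The share of all probes called was then 4.04% to 7.24% on day 10 and 3.09% to 4.47% on day 15. On day 20 the count was 3 (18.8%) without the day 20 array of mouse 305, where 15.9% of all probes were called, and 2 (12.5%) without the day 0 array of mouse 320, against 4.97%. On day 25 it was 2 (12.5%) without the day 25 array of mouse 310, where 10.9% of all probes were called. The day 25 against day 10 count stayed between 5 and 8. The scaling mattered as much. With scaling between arrays 0 of 16 were called on day 10 (2 at an unadjusted p under 0.05), 7 on day 15 and 2 on day 25 against day 10, where 13.2%, 27.9% and 22.1% of all probes were called. The 5 probes that lost their day 10 call differed there by -0.53 to -0.34. With median centring in place of loess 15, 0 (12 unadjusted) and 13 of 16 were called, where 44%, 0.0143% and 50% of all probes were, every one of the 15 lower on day 10 and every one of the 13 higher on day 25 against day 10.

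**Figure D2:**
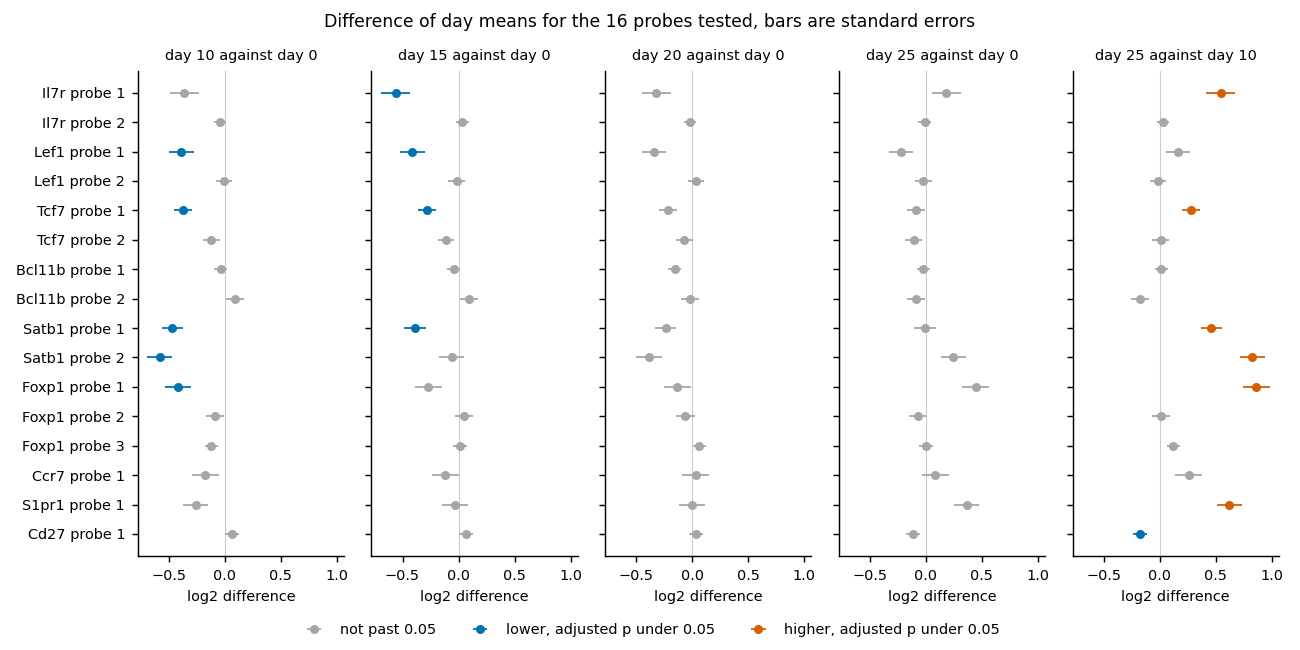
Difference of day means on the log2 scale (x axis) for each of the 16 probes tested (y axis), 1 panel per comparison; points are differences, bars are standard errors, and colour marks an adjusted p under 0.05. Blue points, lower, stand in the day 10 and day 15 panels, 6 orange points, higher, and 1 blue point in the last panel, and the day 20 and day 25 panels against day 0 hold none.

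Where a gene had several probes, the calls came from the brightest, apart from Satb1, whose 2 probes were both called. The probes called were well above background on 20 of 20 arrays, and for Il7r, Lef1, Tcf7 and Foxp1 the called probe was the one nearest the 3' end in the day 15 files' coordinates (build not named). Tcf7 probe 2 lies 717 bases upstream of probe 1 and differed from day 0 by -0.12 (SE 0.074, adjusted p = 0.316) on day 10. Its day 15 difference was -0.11 (SE 0.074, adjusted p = 0.616). That difference passed only with Cy5 alone, no background correction, the scanner software's ratio and scaling between arrays, at -0.73 to -0.22 (adjusted p between 0.00312 and 0.0194). Lef1 probe 2, whose mapped bases span 18162 bases and so cross introns, differed by -0.0072 (SE 0.074, adjusted p = 0.963) on day 10. Foxp1 probes 2 and 3, 8215 and 25629 bases upstream, differed from day 10 on day 25 by 0.015 (SE 0.081, adjusted p = 0.904) and 0.12 (SE 0.059, adjusted p = 0.127). The probes of Lef1, Tcf7, Foxp1 and Il7r thus disagreed in size, and the difference between probes of a gene was not tested. The added offset of 50 intensity units draws dim probes toward a ratio of 1, and its part in the disagreement between probes was not tested. With offset 10 in its place, 2 of 80 probe comparisons lost a call and 0 gained one.

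Over the 20 arrays, 7 of the 9 genes correlated positively with the mean of the others. The brightest probe of each gene correlated with the mean of the other 8 at 0.883 for Satb1, 0.812 for Tcf7, 0.752 for Lef1, 0.713 for Foxp1, 0.685 for Ccr7, 0.681 for S1pr1 and 0.656 for Il7r. Bcl11b (-0.226) and Cd27 (-0.401) correlated negatively with that mean and with each other at 0.801, though single pairs differed (0.244 for Bcl11b and 0.119 for Cd27 with Ccr7). These values are Pearson's r, given as a description: the arrays share slides and come from 4 mice bled 5 times, and are not independent. By the same measure 20534 other probes were compared with the mean of the 9 genes. Probes without a matched gene symbol or with a provisional name were then left out, and 1 probe per gene was ranked. Among those ranked, Cdc5l (0.924), Bccip (0.922) and Ctps2 (0.911) were among the 5 most like that mean. Cdc5l, a part of the splicing machinery, differed by -0.34 on day 10 (adjusted p = 0.00861) and by 0.38 on day 25 against day 10 (adjusted p = 0.00115).

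**Figure D3:**
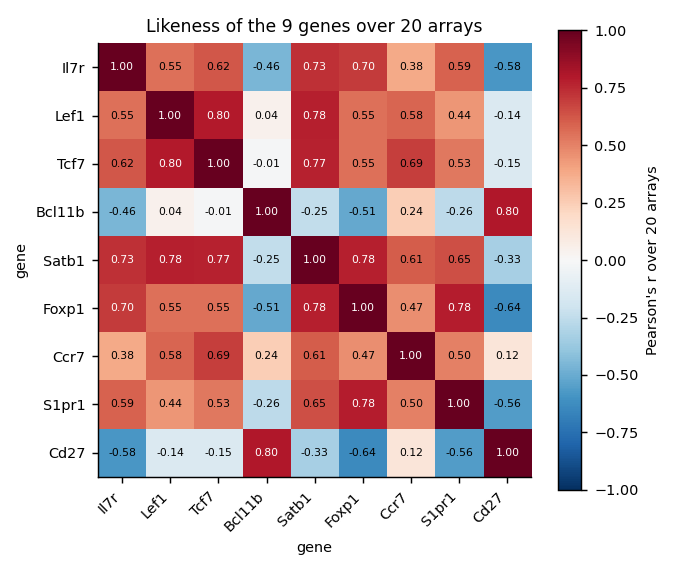
Pearson's r over the 20 arrays between the brightest probes of the 9 genes; rows and columns are genes, and colour runs from -1 (blue) to 1 (red). Satb1, Tcf7 and Lef1 correlate with each other at 0.766 to 0.795, and Foxp1 at 0.78 with both Satb1 and S1pr1. Bcl11b and Cd27 pair at 0.80 apart from the rest.

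Markers of T cells in general were set beside the 9 genes. Of 16 T cell markers, all kept, limma called 0 on day 10 (4 at an unadjusted p under 0.05), 0 higher and 2 lower on day 15, 0 on day 20 and 0 on day 25 against day 0 (1 and 4 unadjusted), and 6 were higher and 1 lower on day 25 against day 10. The 2 that fell on day 15 were Cd3d (-0.38, adjusted p = 0.0334), a chain of the T cell receptor complex, and Cd8b1 (-0.53, adjusted p = 0.0334), of cytotoxic T cells. Each call was lost when any 1 of 6 arrays was left out (highest adjusted p 0.132 for Cd3d and 0.13 for Cd8b1). Cd3e differed by 0.34 on day 10 (adjusted p = 0.818), with an SE of 0.76. The Cd4 probe was well above background on only 4 arrays. The mean log2 ratio over the 9 genes was 0.0169, -0.237, -0.195, -0.117 and 0.0781 on days 0, 10, 15, 20 and 25, and over the T cell markers 0.0359, -0.0286, -0.0954, 0.126 and 0.13. On day 20 the T cell mean was 0.30 in mouse 305, against 0.051 to 0.079 in the other mice. The median difference of the T cell markers from day 0 was then -0.0153. The difference between these lists was not tested. With median centring the T cell markers had a median difference of -1.26 on day 10 with 13 of 16 lower. The median was -1.26 for the 16 probes of the 9 genes and -0.394 for all probes. These sets are unlike, since the T cell markers enter with 1 probe per gene and the 9 genes with every probe kept. With 1 probe per gene and loess the day 10 median of the 9 genes was -0.363, against -0.147 over the 16 probes. Whether the difference between the lists depends on the scaling cannot be read from these medians. Of 14 effector and memory T cell genes kept out of 16, 0 were higher and 0 lower on days 10, 15 and 25 against day 0, and 1 was lower on day 20; 1 was higher on day 25 against day 10.

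Markers of other blood cells changed over the same days. The 12 neutrophil markers had mean log2 ratios of -0.153 to 0.291 on day 10, against 0.522 to 1 on day 0, and 8 of 12 were lower on day 10 (median -0.781), as were 8 on day 15 and 9 on day 20. S100a8, a calcium-binding protein of neutrophils, differed by -1.83 on day 10 (adjusted p = 0.000682) and S100a9 by -2.03 (adjusted p = 0.000833). The 7 erythroid markers kept of 8 had means of -0.131 to 0.901 on day 0, 0.94 to 1.06 on day 10, 0.627 to 0.982 on day 15, 0.278 to 0.919 on day 20 and -0.629 to -0.101 on day 25. Of these, 2 of 7 were higher on day 10 against day 0 (median 0.677, which turned to -0.824 with median centring), and 7 of 7 were lower on day 25 against day 10 (median -1.63). Eraf, a haemoglobin chaperone, differed by 0.80 on day 10 (adjusted p = 0.0145, and -0.64 with median centring) and by -1.71 on day 25 against day 10 (adjusted p = 4.9e-05). Its day 10 call ended without the day 0 array of mouse 305 (adjusted p = 0.0655). The red cell list thus stood high when the 9 genes were low, and low when they were high, and its part in the result was not tested.

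The remaining lists held few calls against day 0. None of the 10 B cell markers was called on days 10 or 15, and 1 was higher on days 20 and 25, Fcer2a in both (0.27, adjusted p = 0.0343, and 0.37, adjusted p = 0.0391). Leaving out any 1 of 6 arrays ended its day 20 call, and any 1 of 9 its day 25 call (highest adjusted p 0.12 and 0.187). The day 20 difference of Fcer2a turned to -0.40 with median centring. On day 25 against day 10, 4 of the 10 B cell, 2 of 9 monocyte and 2 of 12 neutrophil markers were higher and 0 lower, and 0 of 8 platelet markers were higher and 3 lower. Of the 10 NK and cytotoxic markers limma called 0 in any of the 5 comparisons, and 0 had an unadjusted p under 0.05. Mouse 320 had the lowest mean of this list on each of the 5 days (-0.64 to -0.24). The main fit, without the mouse as a block, counts such a spread between mice as error. Of 9 monocyte markers 1 was lower on day 15, Adgre1 (-0.52, adjusted p = 0.0427), and 0 were called on days 10, 20 and 25. Leaving out any 1 of 11 arrays ended the Adgre1 call (highest adjusted p 0.185). Of 8 platelet markers 1 was higher on day 10 and 0 were called on days 15, 20 and 25.

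**Figure D4:**
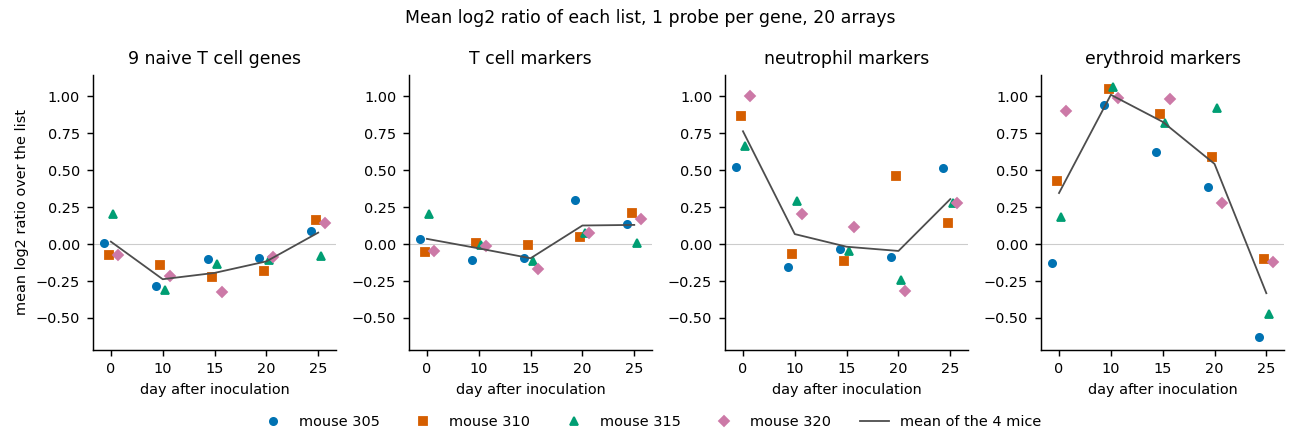
Mean log2 ratio over each list, 1 probe per gene (y axis), by day after inoculation (x axis), for the 9 naive T cell genes, T cell, neutrophil and erythroid markers; points are single arrays marked by mouse and the line joins the means of the 4 mice. On day 25 the 9 genes average 0.0781, against -0.237 on day 10, the T cell markers 0.13 against -0.0286, and the erythroid markers -0.332 against 1.01.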

How the data were processed

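Whole blood RNA of 4 mice on 5 days was measured on 20 Agilent arrays of 2 colours, Cy5 for the mouse and Cy3 for the common reference, per the labels. Start values were the deposited intensity values of each spot, its mean signal and local background median, written by Agilent Feature Extraction 9.1.3.1, whose processed signals were detrended and dye-normalized, per the file headers. The deposited log10 ratio of that software was the same in the series matrix for 900360 of 900360 values (tolerance 1e-06, column medians 0), and served as an alternative. Later steps of the authors are not given in the sources used here.

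Here background was corrected with normexp (offset 50) and arrays were normalized by loess in limma 3.58.1 (R 4.3.3). Control spots and non-uniform spots were left out and spots of a probe averaged. A probe was kept if well above background in Cy5 on at least 4 of 20 arrays and measured on at least 3 arrays of each day. One limma fit with 5 day means and no block gave moderated tests, two-sided, with Benjamini-Hochberg adjustment over 20940 probes at 0.05. Intervals are 95% intervals of that fit. The fit was tried on simulated arrays with independent noise on each array, and the coverage of the intervals was not tested. Bounds compare Cy5 channels after loess and Aquantile and are open to dye bias, since dyes were not swapped. Names came from RefSeq (GRCm38.p6): 23374 of 41174 probes by accession, 6733 by symbol and 2919 by synonym. A gene in a list is its brightest kept probe.

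Same-numbered samples come from the same animal, bled 5 times, and are paired by it. After removal of the day means, the mean correlation was 0.0846 over 40 pairs of arrays of 1 mouse (21 above 0.1) and -0.0287 over 120 pairs of different mice. The main fit did not use this pairing. Its p-values measure the spread of single arrays around their day means, pooled over the 5 days, where mouse and array differences are not separated. They hold no measure of the spread between slides, since day and slide cannot be told apart.

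The genes, the lists and the rule for named genes (all 9 genes, the 4 largest called changes of a list, 7 fixed genes and the 5 most alike) were chosen with earlier results of these data known. Some genes that this rule takes are not reported here. Alternatives were median centring, scaling between arrays, the scanner software's ratio, Cy5 alone, no background correction, offset 10, other filters, 1 probe per gene, the mouse as a block and each array left out.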

Additional observations from a re-analysis of the deposited data

Results flagged for a closer look

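Among 80 groups of 4 arrays (16 probes on 5 days), 8 (10%) held 1 array far from the other 3, where chance gives about 1 in 20. Mouse 320 accounts for 4 of them. For S1pr1 it stood at 0.58 on day 25, against 0.16 to 0.17 in the other mice, and for Il7r probe 1 at -0.36 on day 15, against -0.17 to -0.14. On day 20 the same mouse gave -0.24 with Il7r probe 2, against -0.0017 to 0.028, and 0.26 with Foxp1 probe 3, against -0.019 to 0.0015, both dim probes. Tcf7 probe 1 stood at -0.46 in mouse 305 on day 10, against -0.24 to -0.20, and Satb1 probe 1 at -0.48 in mouse 315 on day 10, against -0.37 to -0.35. Bcl11b probe 1 gave -0.17 in mouse 310 on day 15, against -0.029 to -0.018, and Lef1 probe 2 gave 0.14 in mouse 315 on day 20, against -0.048 to -0.018.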

How the results depend on the processing

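Of the called probes of the 9 genes, only Cd27 on day 25 against day 10 turned its sign under an alternative, median centring, while the calls depended on the scaling; the cause was not tested. In the order day 10, 15, 20 and 25 against day 0, day 25 against day 10, and any difference, 2341, 1226, 602, 31, 6584 and 5651 of all probes were called, and values outside 1.5 times a count are given here. With median centring 9222, 3, 3, 0, 10473 and 3568 of all probes were called, and of the 16 probes 15 on day 10, 0 on day 15 (12 unadjusted) and 13 on day 25 against day 10. The median of all probes then shifted by -0.394 on day 10 and -0.287 on day 15, beside -1.26 and -0.981 for the 16 probes, and 0.184% of the calls on day 10 were higher ones, against 36.4%. On day 25 against day 10 that share was 98.1%, against 56.3%. Scaling between arrays gave 47.4% on day 15, against 34.6%, and 45.6% on day 25, against 25.8%, where Cy5 alone gave 47.2% and the scanner software's ratio 12.7%. With scaling between arrays 5843, 1144 and 553 of all probes were called on days 15, 20 and 25, and of the 16 probes 0, 7 and 2 on day 10, day 15 and day 25 against day 10. The scanner software's ratio gave 6375, 9155, 2471 and 813 calls against day 0 and 11620 for any difference, and 1 of the 16 on day 25. Cy5 alone gave 5266, 9833, 5270, 2443 and 12891, and of the 16 probes 2, 8, 4 and 4 against day 0 and 11 for any difference. No background correction gave 8255, 8275, 3728, 2939 and 11994, and 3 and 2 of the 16 on days 20 and 25. Calls on day 25 numbered 7 with offset 10, 52 with the stricter filter and 12 without a filter, which also gave 382 on day 20.

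The mouse as a replicate block gave 1521 and 270 calls on days 20 and 25 and 1 of the 16 probes on day 20; beside the 3 probe calls named above, the block changed no other call of the 16 probes. Without single arrays, counts of all probes ran between 845 and 3334, 646 and 1717, 106 and 3339, 1 and 2282, 4803 and 7920, and 3757 and 7423 in the order above, and of the 16 probes between 3 and 6, 0 and 4, 0 and 3, 0 and 2, 5 and 8, and 6 and 8.

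Signs turned with median centring for Lef1 probe 2 (0.89) and Cd27 (0.55) on day 25 against day 10, Bcl11b probe 2 (-0.85) and Cd27 (-0.63) on day 10, Fcer2a on days 10 (-1.04) and 20 (-0.40), Traf2 on days 10 (-0.66) and 15 (-0.37) and day 25 against day 10 (0.42), Klf2 (-0.36 and -0.68) and Eraf (-0.64 and -0.69) on days 10 and 15. With Cy5 alone they turned for Il7r probe 2 on day 15 (-0.10), Traf2 on day 25 against day 10 (0.037) and Ctps2 (0.028) on day 10.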
